A study of Mus musculus with 6 samples.

Results

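The actin filaments under the cell membrane are tied to it and to each other by a small set of proteins, and the transcripts of 10 genes that encode them were followed in mouse LSK cells with and without the transcription factor SRF. LSK cells are the bone marrow fraction that lacks lineage markers and carries Sca1 and c-Kit, and it holds the hematopoietic stem cells and multipotent progenitors. The genes are the ERM genes Ezr, Msn and Rdx, the crosslinker and bundler genes Lcp1, Actn4 and Lima1, the capping protein gene Capg, the adaptor gene Lasp1 and the scaffold genes Iqgap1 and Iqgap2. They were taken by name, with earlier results of these data known. Every probe set whose platform annotation names 1 of them and no other gene was used, which gave 35 of 45037 probe sets.

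The control group came from Srf+/+;Mx1-Cre mice and the SRF-null group from Srf flx/flx;Mx1-Cre mice, both on C57BL/6, with 3 arrays per group. All mice, controls included, carried the Mx1-Cre transgene, whose interferon-inducible promoter acts in many cell types, and all received pIpC, the double-stranded RNA that induces it. The injections, 3 of 200 µg at intervals of 2 days, began at 6 weeks of age, and LSK cells were sorted from pooled animals 35 days after the last one. The labels give neither the size of the pools nor whether pools shared animals, so the p-values speak for the spread between these arrays, which may be technical in part. Sex-linked transcripts, given below, differed within each group, so the arrays of a group did not all come from the same pool.

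Ezrin, moesin and radixin link the cytoplasmic tails of membrane proteins to actin filaments once lipid binding and phosphorylation have opened them, and in leukocytes they shape microvilli and the uropod. Crosslinkers such as plastin and alpha-actinin hold filaments in bundles and networks. IQGAP proteins are scaffolds that bind actin, calmodulin and the small GTPases Cdc42 and Rac. SRF, with cofactors that sense free actin, drives many actin cytoskeleton genes through the CArG box, a motif of CC, 6 bases that are each A or T, and GG.

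Of the 12 promoter windows of the 10 genes, the window of Lima1 alone held a CArG box. A window runs from 250 bases before to 50 bases after an annotated start (RefSeq, build GRCm38.p6), and all 10 genes matched by symbol. The windows of Lima1, Capg, Iqgap1, Iqgap2 and Lasp1 lay wholly inside the annotated genes, so the outer ends of these genes were not searched. The motif reads the same way on both strands, no mismatch was allowed, and 1.63% of the 32851 windows of all genes held it. The part of the Lima1 window before the start is chr15:99820150-99820399 on the minus strand, inside the annotated Lima1 gene, and the box, in capitals, lies at positions -47 to -38 from the start. The Srf promoter, chr17:46556203-46556262 on the minus strand, is shown beside it because the Srf gene carries the box as well, in 2 copies at -82 to -73 and -62 to -53.
Lima1: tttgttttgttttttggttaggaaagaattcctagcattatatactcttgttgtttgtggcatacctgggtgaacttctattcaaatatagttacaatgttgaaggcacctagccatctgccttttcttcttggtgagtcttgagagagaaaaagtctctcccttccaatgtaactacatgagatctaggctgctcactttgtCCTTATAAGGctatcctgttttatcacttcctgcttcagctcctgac
Srf: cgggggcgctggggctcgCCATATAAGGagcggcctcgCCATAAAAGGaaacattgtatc
A match is a description of these letters and not a measured binding site, and no match in the other windows says only that the letters are not there.

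Values are log2 of the deposited intensity plus 16 after quantile normalization, so 4 is the bottom of the scale and a value near 5 is an intensity about as large as the offset. They are given for replicates 1, 2 and 3 of each group in turn (n = 3), and differences are SRF-null minus control with the standard error (SE) of the limma fit, on the scale with the offset, which understates the change of dim probe sets. Probe sets of a gene are numbered from the brightest. Levels of different probe sets are not comparable, since each has its own probes.

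The arrays had median intensities of 200.5 to 292.1. Among LSK markers, Kit was at 14.81 to 15.44, Cd34 at 16.72 to 16.93 and Flt3 at 15.10 to 15.68 on the 6 arrays. Of the 10 markers measured 4 were higher and 6 lower in SRF-null cells, with a median difference of −0.14 and none past the test. The furthest was Slamf1, a stem cell marker, at 11.60, 12.33 and 11.80 in control and 11.61, 10.73 and 9.18 in SRF-null cells (difference −1.40, SE 0.62), followed by Mecom at −0.36 (SE 0.30). The brighter Srf probe set was at 13.04, 12.998 and 13.04 in control and at 12.58, 12.43 and 12.80 in SRF-null cells, a difference of −0.42 (SE 0.14) that did not pass adjustment (limma adjusted p = 1.0). The dimmer Srf probe set was at 9.02, 9.58 and 10.20 in control and 9.37, 9.62 and 10.12 in SRF-null cells, with overlapping groups and a difference of 0.10 (SE 0.35). The position of either relative to the deleted part is not stated in the labels, so the completeness of the deletion was not measured. Control replicate 2 lacked Y-linked transcripts (Kdm5d at 4.0, against 10.54 to 11.98 elsewhere) and SRF-null replicate 1 lacked Xist (5.03, against 15.13 to 16.24), so these 2 arrays carried transcripts of 1 sex and the other 4 those of both. The 3′ minus 5′ signal of the Actb control probe sets was 1.18 to 1.45 in control and 0.93 to 1.51 in SRF-null cells, a difference of −0.18 (exact permutation p = 0.4, two-sided, where 3 against 3 arrays allow no p below 0.1). For Gapdh it was 0.97 to 1.20 and 0.67 to 1.16 (exact permutation p = 0.4).

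None of the 35 probe sets passed the test, as none did among all 45037 (0.0%, limma adjusted p under 0.05), and the lowest adjusted p of a member was 0.982. On 6 of the 35, or 17.1%, the SRF-null arrays all lay above the control arrays, against 4.73% of all probe sets. On 0 of 35 they all lay below, against 4.5% of all probe sets. The 6 belonged to Lima1 (3 of 5 probe sets), Lcp1 (2 of 2) and Iqgap1 (1 of 7). Probe sets of 1 gene are not independent of each other, and the genes were chosen with earlier results of these data known. In bulk RNA of sorted cells, more cells of a type and more RNA per cell cannot be told apart. An unadjusted p under 0.05 was reached by 3 of 35 probe sets, or 8.57%, against 4.39% of all. The median difference of the 35 was 0.05, with 22 above and 13 below 0, and the median over all probe sets was 0.00.

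**Figure D1:**
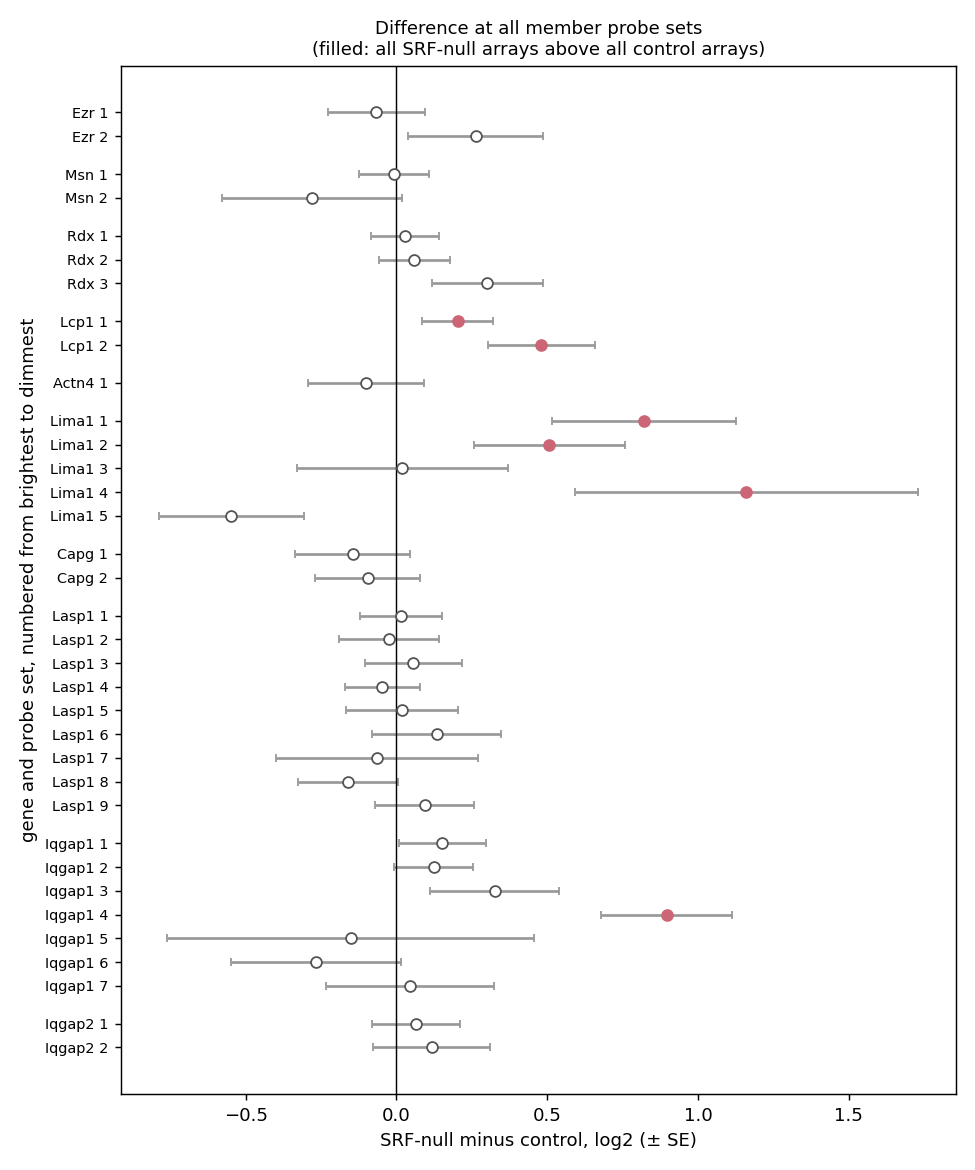
Difference between SRF-null and control cells at the 35 member probe sets (x axis, log2, bars ± SE of the limma fit), with probe sets of each gene numbered from brightest to dimmest on the y axis. The 6 filled points, of Lcp1, Lima1 and Iqgap1, are those whose 3 SRF-null arrays all lay above the 3 control arrays, and the other 29 points are open.

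The 3 ERM genes had nearly the same signal in both genotypes on their brightest probe sets. Moesin, the main ERM protein of lymphocytes, was represented by Msn at 16.10, 15.97 and 16.02 in control and 16.005, 16.07 and 15.99 in SRF-null cells. The groups overlapped and the difference was −0.01 (SE 0.12, limma adjusted p = 1.0). Msn lies on the X chromosome, and the 2 arrays with transcripts of 1 sex were at 15.97 and 16.005 and the other 4 at 15.99 to 16.10.

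Radixin, the ERM protein best known from bile canaliculi and hair cell stereocilia, had close replicates. Its gene Rdx was at 16.44, 16.43 and 16.45 in control and 16.53, 16.44 and 16.43 in SRF-null cells, a difference of 0.03 (SE 0.11). The other probe sets of Rdx differed by 0.06 (SE 0.12) and 0.30 (SE 0.18). Ezrin, the ERM protein of epithelial microvilli that lymphocytes also express, was represented by Ezr at 13.48, 13.88 and 13.85 in control and 13.69, 13.55 and 13.77 in SRF-null cells. The groups overlapped, and the difference of −0.07 (SE 0.16) had the opposite sign to that of the second Ezr probe set, 0.26 (SE 0.22). The second Msn probe set, which was dim at 8.15 to 9.26, differed by −0.28 (SE 0.30).

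Whether the ERM genes differed from one another in their response was asked array by array, by subtracting one log2 signal from the other. Ezr minus Msn differed between the genotypes by −0.06, Ezr minus Rdx by −0.10 and Msn minus Rdx by −0.04. Over 5 such pairs of members the exact permutation p-values were 0.2 to 0.7 (two-sided, n = 3 per group, smallest possible 0.1), and the Benjamini-Hochberg adjusted p was 0.7 for each.

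**Figure D2:**
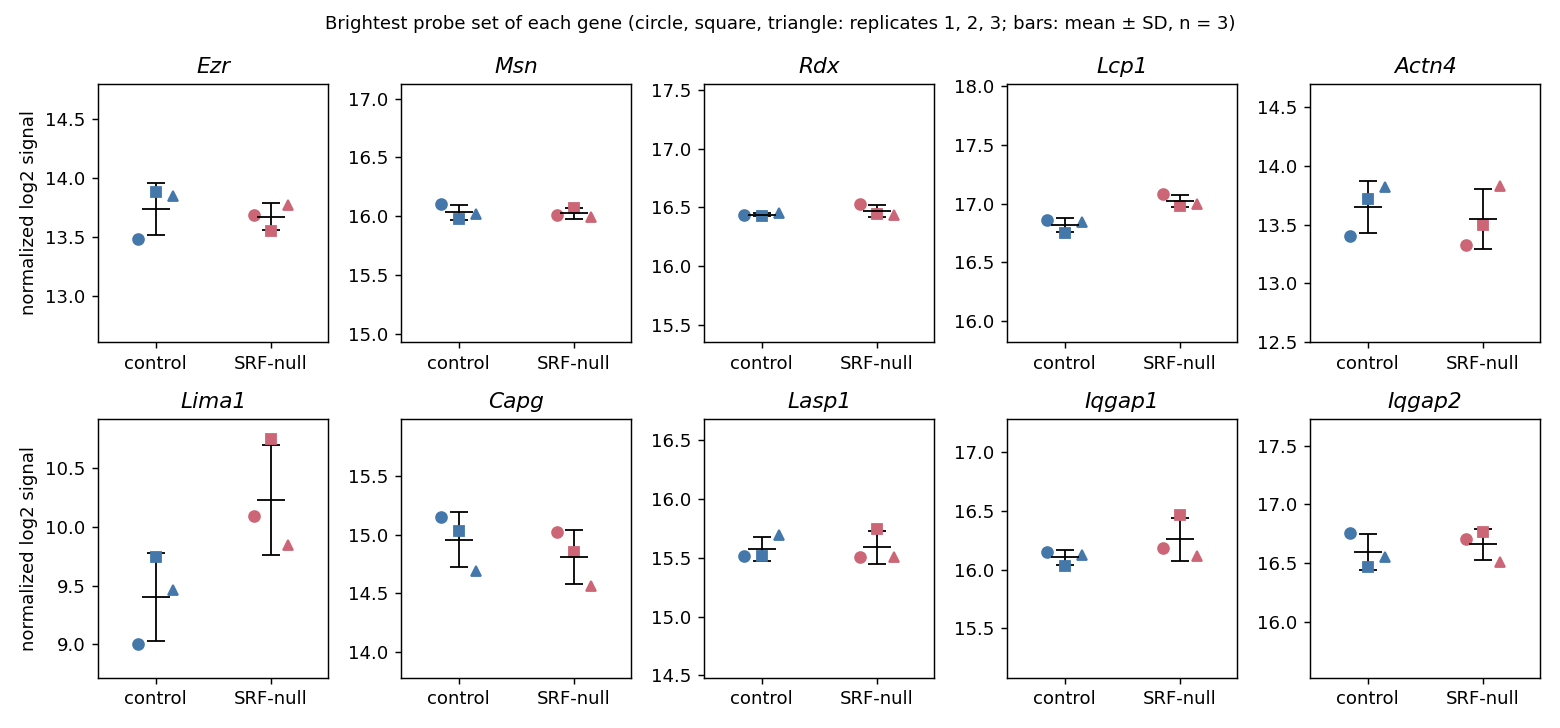
Normalized log2 signal (y axis, each panel spanning the same width) of the brightest probe set of the 10 genes in control (blue) and SRF-null (red) cells, with circle, square and triangle for replicates 1, 2 and 3 and bars for mean ± SD (n = 3). The genotypes lie apart for Lima1 and Lcp1 and overlap for the other 8 genes.

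Lima1 had the largest differences of the crosslinkers. It encodes EPLIN, a LIM domain protein that bundles actin filaments and slows their disassembly. On its brightest probe set (1435727_s_at) the signal was 9.01, 9.75 and 9.47 in control and 10.09, 10.75 and 9.84 in SRF-null cells. The SRF-null arrays all lay above the control arrays, although SRF-null replicate 3 exceeded control replicate 2 by less than the spread within either group. The difference was 0.82 (SE 0.30), or 1.77-fold, and it did not pass (limma adjusted p = 1.0).

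The second probe set of Lima1 (1422499_at) was at 9.0045, 9.44 and 9.27 in control and 9.53, 10.23 and 9.47 in SRF-null cells, a difference of 0.51 (SE 0.25). The fourth (1450629_at), dim in control cells, was at 5.86, 6.60 and 6.68 against 7.11, 8.78 and 6.73, a difference of 1.16 (SE 0.57). Without SRF-null replicate 2 these differences were 0.26 and 0.54. On each of these 3 probe sets SRF-null replicate 2 was the highest array and replicate 3 the lowest SRF-null array. The remaining probe sets gave no common direction. The third (1425654_a_at) differed by 0.02 (SE 0.35), and the fifth (1435726_at), near the bottom of the scale at 4.11 to 5.19, by −0.55 (SE 0.24). The annotation used here does not say which Lima1 transcript each probe set detects.

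Lcp1 encodes L-plastin, the actin-bundling protein of leukocytes, and both of its probe sets were above all controls in SRF-null cells. The brighter (1415983_at) was at 16.86, 16.75 and 16.84 in control and 17.08, 16.98 and 16.9997 in SRF-null cells. These groups were tight and did not overlap, and the difference was small at 0.20 (SE 0.12), or 1.15-fold (limma adjusted p = 1.0). The dimmer (1448160_at) was at 15.06, 14.83 and 15.20 in control and 15.64, 15.25 and 15.63 in SRF-null cells, a difference of 0.48 (SE 0.18), or 1.40-fold (limma adjusted p = 1.0).

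Actn4 encodes alpha-actinin-4, the non-muscle crosslinker of stress fibres and cell edges, and differed by less than its spread. It was at 13.41, 13.72 and 13.82 in control and 13.33, 13.49 and 13.82 in SRF-null cells on its single probe set (difference −0.10, SE 0.19). The Lcp1 difference exceeded that of Actn4 by 0.30, with an exact permutation p of 0.2.

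**Figure D3:**
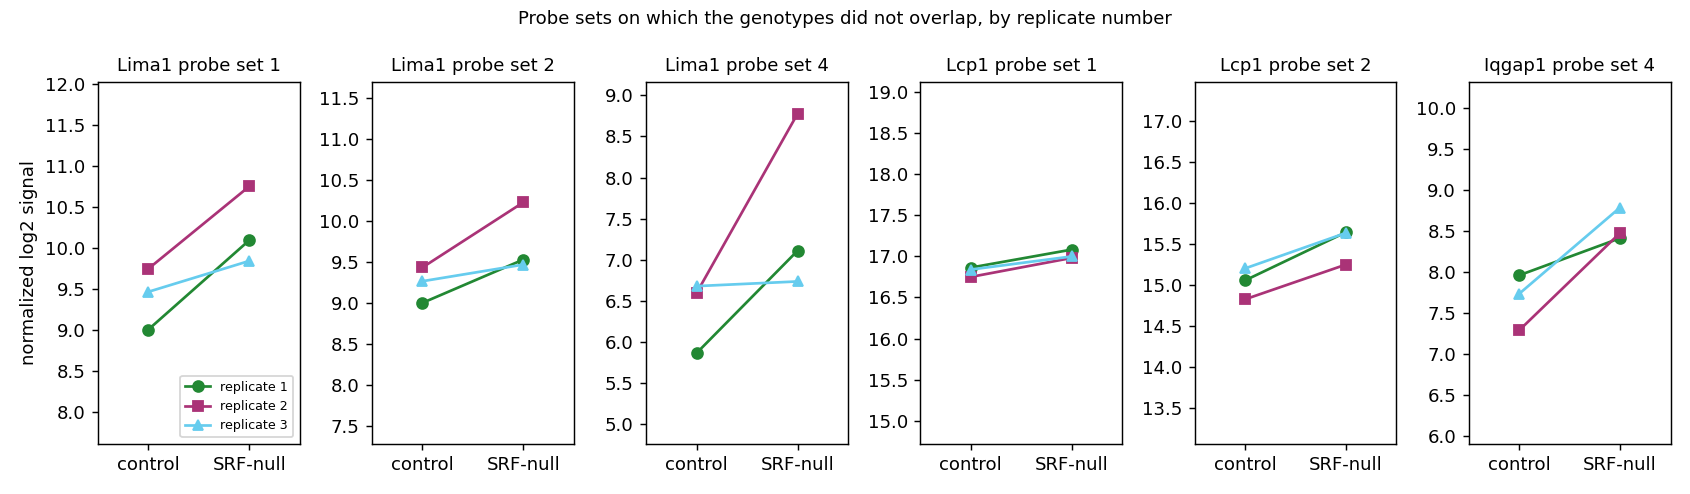
Normalized log2 signal (y axis) of the 6 probe sets on which all SRF-null arrays lay above all control arrays, with arrays of the same replicate number joined by a line. The lines slope upward because the probe sets were chosen that way, and the steps run from 0.06 (replicate 3 of Lima1 probe set 4) to 2.18 (replicate 2 of the same probe set), and by 0.16 to 0.23 for the brighter Lcp1 probe set.

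Capg encodes a gelsolin family protein that caps filament ends without cutting them and is abundant in macrophages. Its brighter probe set was at 15.15, 15.03 and 14.69 in control and 15.02, 14.85 and 14.56 in SRF-null cells. The groups overlapped, and the difference was −0.14 (SE 0.19). Within each replicate number the SRF-null array was below its control by a near equal step, −0.13, −0.18 and −0.13, and the dimmer probe set gave −0.08, −0.13 and −0.08. In the limma fit with a replicate block the adjusted p of these probe sets was 0.872 and 0.923.

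Lasp1 encodes an adaptor with a LIM and an SH3 domain that binds actin at cell edges and in podosomes. On the brightest of its 9 probe sets it was at 15.51, 15.52 and 15.69 in control and 15.51, 15.75 and 15.51 in SRF-null cells, with overlapping groups and a difference of 0.01 (SE 0.14). The other 8 probe sets differed by −0.16 to 0.13 with SEs of 0.12 to 0.33, 5 of the 9 above 0 and 4 below. The names of 7 of the 9 end in x_at, Affymetrix's mark for probes that can also match other sequences. The second Ezr probe set and the dimmer Capg probe set carry this mark too.

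The IQGAP genes differed little on their brightest probe sets. IQGAP1 is the widely expressed form, and Iqgap1 was at 16.15, 16.04 and 16.13 in control and 16.19, 16.47 and 16.12 in SRF-null cells. SRF-null replicate 2 stood above the other arrays, the groups overlapped, and the difference was 0.15 (SE 0.14). IQGAP2, known from liver and platelets, was represented by Iqgap2 at 16.76, 16.46 and 16.55 in control and 16.70, 16.77 and 16.51 in SRF-null cells, a difference of 0.07 (SE 0.15), with 0.12 (SE 0.19) on its second probe set. The Iqgap1 difference exceeded that of Iqgap2 by 0.09 (exact permutation p = 0.4).

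A dimmer Iqgap1 probe set, the fourth (1431395_a_at), had the smallest p of the 35. It was at 7.96, 7.29 and 7.74 in control and 8.41, 8.48 and 8.79 in SRF-null cells, with no overlap and a difference of 0.90 (SE 0.22), or 1.86-fold (limma adjusted p = 0.982). The other 5 probe sets of Iqgap1 below the brightest, at 4.38 to 16.34, differed by −0.27 to 0.33 with SEs of 0.13 to 0.61, and their groups overlapped. On 2 of these 5 the steps within replicate numbers had 1 sign, 0.14, 0.13 and 0.09 on 1417379_at and −0.17, −0.35 and −0.28 on 1458124_at, with opposite directions (limma adjusted p with a replicate block 0.897 and 0.763). Steps of 1 sign occurred on 7 of the 29 member probe sets with overlapping groups, or 24.1%, against 20.6% of all such probe sets. The probe sets thus disagreed on the size of the Iqgap1 difference.

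The summed signals of 2 lists of mature cell markers were above the controls on the SRF-null arrays, beside the differences of Lima1, Lcp1 and Iqgap1, although most single markers overlapped. Over all genes, each at its brightest probe set, 48.6% were higher and 5.14% lay above all controls. Of 14 monocyte and macrophage markers 12 were higher and 2 lower, 3 of them above all controls, with a median difference of 0.72. Their summed signal was 118608 to 141597 in control and 144975 to 167634 in SRF-null cells. The brightest markers set most of this sum. Lyz2, the brightest, differed by −0.07 (SE 0.16), and Ctss, the next, by 0.75 (SE 0.19). Control replicate 2 and SRF-null replicate 1 had the sums 141597 and 144975, with Ctss at 14.57 and 15.09. On the linear scale this Ctss step is larger than the step between the sums, so without Ctss the sums of the genotypes overlap. Marco was the 1 marker of that list below 6 on every array. Of 10 T and NK cell markers 9 were higher and 1 lower, 4 of them above all controls, with a median of 0.80. Their summed signal was 1606 to 2282 against 3867 to 5530, and Cd3d and Cd3g were below 6 on every array. None of these markers passed the test, and their part in the differences of the members was not tested. All 8 dendritic cell markers were higher, none of them above all controls, with a median of 0.36. Their summed signal was 104537 to 151851 against 111987 to 215429. Flt3, also counted among the LSK markers, was 1 of these 8, and Cd74 differed by only 0.0012 (SE 0.59). Of 6 megakaryocyte markers 4 were higher and 2 lower (median 0.32), of 7 B cell markers 6 and 1 (median 0.14), of 9 granulocyte markers 5 and 4 (median 0.08) and of 6 erythroid markers 5 and 1 (median 0.03). The summed signals of these 5 lists and of the LSK markers overlapped between the genotypes.

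The genes around the members in the same pathways were read from 5 lists, each gene at its brightest probe set, and none passed the test (limma, adjusted over all probe sets). Over all 18193 genes 48.6% were above 0, the median difference was −0.01, and the SRF-null arrays lay above all controls in 5.14% and below them in 5.45%. Of 21 regulators and membrane partners of ERM proteins 11 were above 0 and 10 below, with a median of 0.01. Podxl, which encodes the sialomucin podocalyxin that binds ezrin through an adaptor, was at 12.75, 14.27 and 13.66 in control and 12.17, 11.54 and 11.54 in SRF-null cells. The groups did not overlap, and the difference was −1.81 (SE 0.42, limma adjusted p = 0.973). The second Podxl probe set differed by 0.27 (SE 0.25). It was near the bottom of the scale, at 4.90 or lower on every array, and so cannot check the difference of the first. Pip5k1b, which encodes a kinase that makes the lipid that opens ERM proteins, differed by −0.55 (SE 0.15), −0.40 (SE 0.26) and −0.40 (SE 0.18) on its 3 probe sets, with no overlap on 2 of them. Map4k4, a kinase gene, differed by 0.20 (SE 0.16).

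Of 25 other crosslinking and bundling genes 12 were above 0 and 13 below, with a median of −0.02 and 3 genes above all controls. Add3 encodes an adducin, which joins spectrin to actin, and differed by 0.33 (SE 0.13). Lsp1, of a leukocyte actin-binding protein, differed by 0.33 (SE 0.15), and the muscle alpha-actinin gene Actn3, dim at 5.38 to 6.50, by −0.50 (SE 0.25). Of 13 other gelsolin family and capping genes 7 were above 0 and 6 below (median 0.05). Among them the severing protein genes Scin and Gsn differed by −1.22 (SE 0.70) and 0.35 (SE 0.25) and Flii by −0.20 (SE 0.14). On their dimmer probe sets Gsn differed by −0.09 to 0.20 and Flii by −0.21 (SE 0.14) and 0.19 (SE 0.38).

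Of 10 IQGAP relatives and partners 4 were above 0 and 6 below (median −0.02). The E-cadherin gene Cdh1 differed by 1.12 (SE 0.72), Tsg101 by −0.20 (SE 0.13) and the formin gene Diaph1 by −0.15 (SE 0.16). On its dimmer probe sets Diaph1 differed by 0.01 (SE 0.13) and −0.03 (SE 0.60). Of 18 other LIM domain genes 10 were above 0 and 8 below (median 0.04), and 4 lay below all controls. The 3 with the smallest p among them were Pdlim1 (−0.43, SE 0.14) and the MICAL-like genes Micall1 (−0.33, SE 0.14) and Micall2 (−0.33, SE 0.14). Pdlim1, whose product binds alpha-actinin, differed by −0.22 (SE 0.35) and 0.01 (SE 0.11) on its dimmer probe sets, the last near the bottom of the scale.

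**Figure D4:**
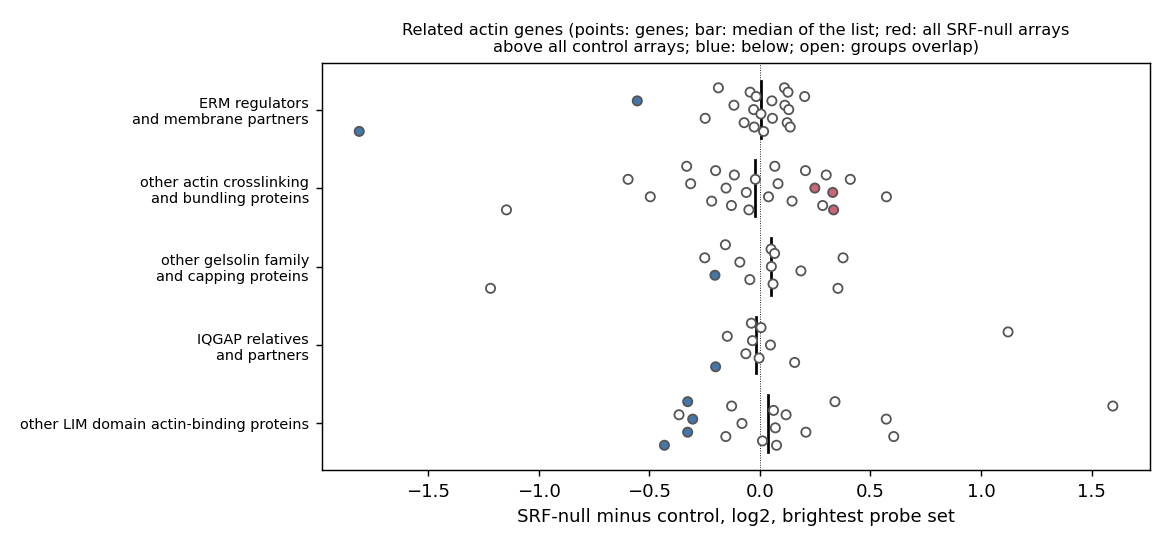
Difference between SRF-null and control cells (x axis, log2, brightest probe set) for the genes of 5 lists of related actin genes (y axis), with a bar at each list's median. The medians lie between −0.02 and 0.05, and the lowest point of the ERM regulators and partners is Podxl at −1.81.

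Of the 10 members, Lima1 had the smallest p at its brightest probe set, and the genes most like it over the 6 arrays were sought among 10751 others with a mean of at least 8. Slirp had a Pearson r of 0.995 with it, Capn3 of 0.993 and Atp5mpl of 0.985. These are descriptions over 6 points, and the differences were 0.31 (SE 0.17), 0.56 (SE 0.22) and 0.21 (SE 0.12).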

How the data were processed

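RNA from sorted LSK cells (30 ng of total RNA, amplified and biotin-labelled, per the labels' protocols) was hybridised to Affymetrix arrays. The deposited table holds 1 linear intensity per probe set and array, a unit read from the values. How the authors summarised, background-corrected and scaled them is not stated in the labels. The series' design text names a smaller array type than the annotation of the table, which was used as it stands. Of 45101 probe sets 64 Affymetrix controls were left out, 34945 named 1 gene, 932 several and 9160 none. Detection calls were not used. With 3 arrays a group, array number sets the precision.

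Intensities were converted to log2(value + 16), quantile normalized and compared with limma 3.58.1 in R 4.3.3 (lmFit, eBayes, genotype as the only term, Benjamini-Hochberg over 45037 probe sets, threshold 0.05). The fit was tested on simulated data with independent arrays and changes larger than any member difference. That test does not show whether changes of the members' size could be called. Promoters were searched and figures drawn in Python 3.11.15 with matplotlib 3.10.9.

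Same-numbered arrays of the genotypes deviated together from their group means (correlations of 0.47, 0.21 and 0.43 for replicates 1, 2 and 3), so the numbers may pair the arrays, a hint from the data and not the labels. Named were all members, Srf, up to 3 genes per list with the smallest p and the 3 genes most like the member with the smallest p. The members and lists were chosen with earlier results of these data known. The other markers named are those that check the cell type, sex-linked transcripts and markers at the bottom of the scale.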

Additional observations from a re-analysis of the deposited data

How the results depend on the processing

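Over 17 alternatives none of the 35 member probe sets passed the threshold, with a lowest adjusted p of 0.503. Across all probe sets 1 passed after median centring (Mocs1) and 0 to 1 when 1 array was left out, the 1 being Ccnb1ip1 without control replicate 2. In the fit with the replicate block the count past the threshold was 0, and 3189 probe sets had an unadjusted p under 0.05, against 1975 without the block, 4 of them members against 3. That count was 1231 after median centring, 3422 without control replicate 1 and 1289 without both arrays with transcripts of 1 sex. The number of member probe sets above all controls, an alternative chosen after the data were seen, was 4 after median centring (2.38% of all probe sets), 8 after upper quartile centring (6.51%), 6 to 9 without 1 array (8.18 to 11.3%) and 6 without both arrays with transcripts of 1 sex (15.2%). The number below all controls was 0 to 2 without 1 array (7.21 to 13.6%) and 3 without both arrays with transcripts of 1 sex (12%). At the brightest probe set Lima1 ranged from 0.56 to 1.06 and Lcp1 from 0.14 to 0.23, and the means of all their probe sets differed by 0.39 and 0.34. Without 1 array the second Lima1 probe set ranged from 0.26 to 0.64 and the fourth from 0.54 to 1.56, both lowest without SRF-null replicate 2. Since no member difference passed in any fit, a sign change could fall only on a difference that had not passed. Without both arrays with transcripts of 1 sex Rdx was at −0.0064, Iqgap2 at −0.021 and −0.040, Actn4 at 0.044, the third Lima1 probe set at −0.36 and Ezr minus Msn at 0.023. After median centring Rdx was at −0.0076 and Lasp1 at −0.0098, and after upper quartile centring Msn was at 0.026. With the mean of all probe sets Ezr was at 0.098 and Ezr minus Msn at 0.24. Without 1 array the ranges were −0.19 to 0.0033 for Ezr, −0.038 to 0.026 for Msn, −0.0018 to 0.046 for Rdx, −0.064 to 0.074 for Lasp1, −0.22 to 0.016 for the dimmer Capg probe set, −0.24 to 0.0089 for Actn4, −0.29 to 0.36 for the third Lima1 probe set, −0.22 to 0.042 for Ezr minus Msn and −0.075 to 0.0014 for Msn minus Rdx. The 13 Lasp1 and Iqgap1 probe sets given as ranges changed sign in 25 of 189 fits. The cause was not tested.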
